A study of Homo sapiens with 4 samples.

Results

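The genes described here are the 6 human DNA topoisomerase genes measured in RPE-1 cells (TOP1, TOP1MT, TOP2A, TOP2B, TOP3A and TOP3B) and 4 genes whose products act on topoisomerases that stay bound to DNA (TDP1, TDP2, ZNF451 and SPRTN). They were chosen by name, through the current NCBI symbol of the Gene ID in the count tables. All 10 were found among the 23459 listed genes, and all 10 passed the filter on low counts that kept 12559 genes. hTERT RPE-1 is a non-cancerous human cell line of retinal pigment epithelium origin, of wild type genotype, kept dividing by the catalytic subunit of telomerase. All cells were held for 48 h in medium with 0.1% serum, which is used to hold them in G0/G1, and then exposed to 200 μM merbarone, a drug that inhibits the catalytic cycle of type II topoisomerases. There were 2 libraries after 4 h of merbarone and 2 libraries after 8 h. Every library received the drug, so each difference given here is between 4 h and 8 h of exposure, and time of exposure cannot be told apart from time in low serum.

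Topoisomerases relieve the twisting of DNA by cutting it, passing a strand or a duplex through the cut, and sealing it again. During the cut the enzyme is held to the DNA end by a bond to its active-site tyrosine. Type I enzymes (TOP1, the mitochondrial TOP1MT, TOP3A and TOP3B) cut a single strand, and type II enzymes (TOP2A and TOP2B) cut both. When sealing fails, the enzyme remains as a trapped complex. TDP1 cleaves the bond that TOP1 leaves at a 3′ end and TDP2 the bond that TOP2 leaves at a 5′ end, ZNF451 is a SUMO ligase, also called ZATT, that aids TDP2, and SPRTN is a protease that digests proteins linked to DNA. TOP2A is made mostly by dividing cells, whereas TOP2B is also made by cells that do not divide. Merbarone is known as a catalytic inhibitor, in contrast to poisons such as etoposide that trap TOP2 on DNA.

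Counts per library ranged from 8064450 to 10324697. The TMM factors, which correct for library composition, were between 0.9575 and 1.039. Within a time the replicates were not copies of each other, since their counts differed by 2.67 (4 h) and 3.84 (8 h) chi-square units per degree of freedom, where sampling alone gives about 1. The line expressed the 5 markers of cultured epithelium and mesenchyme that were checked (KRT8, KRT18, KRT7, VIM and CDH2), with 99359 to 102122 counts in sum per library. Most of this sum was VIM (88366 to 91660 counts), and the lowest of the 5 was KRT7 (587 to 707). Of 8 markers of differentiated retinal pigment epithelium only MITF was well covered (669 to 882 counts), while PMEL had 7 to 12, the visual cycle genes RPE65, RLBP1 and LRAT had 0 to 7 and TYR had 0 in every library. The 5 markers of other lineages (PTPRC, CD3E, PECAM1, ALB and MYOD1) had 7 to 11 counts in sum. The proliferation marker MKI67 had 2774 and 2916 raw counts in the 4 h libraries and 1182 and 881 in those of 8 h, so its transcripts were present at both times. Whether cells were cycling was not measured.

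Between 4 h and 8 h, 2 of the 10 genes rose (TOP1 and ZNF451), 4 fell (TOP2A, TOP2B, TDP1 and TDP2) and 4 did not pass the test (TOP1MT, TOP3A, TOP3B and SPRTN). A gene passed with a Benjamini-Hochberg adjusted p below 0.05 in edgeR's quasi-likelihood test over all 12559 retained genes. Of those genes, 19.9% rose and 18.8% fell at this threshold, 38.8% in all, beside 6 of the 10 genes here, so no excess of calls is read from so few genes. TOP2A was the only one of the 10 that also passed the study's fold threshold, an absolute log2 fold change (log2FC) above 1, which 3.88% of the retained genes passed downward and 1.45% upward. For 6 of the 10 genes both 8 h libraries lay below both 4 h libraries and for 3 they lay above, where 34.9% of retained genes lay below and 34.8% above. The median log2FC of the 10 genes was −0.25, and that of all retained genes was 0.00. With scaling by library size alone the median of all genes became −0.11, and the split of called genes went from 2500 higher and 2367 lower to 1698 higher and 3289 lower. In bulk RNA, fewer cells that express a gene and less RNA per cell cannot be told apart, and this holds for every change given here.

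**Figure D1:**
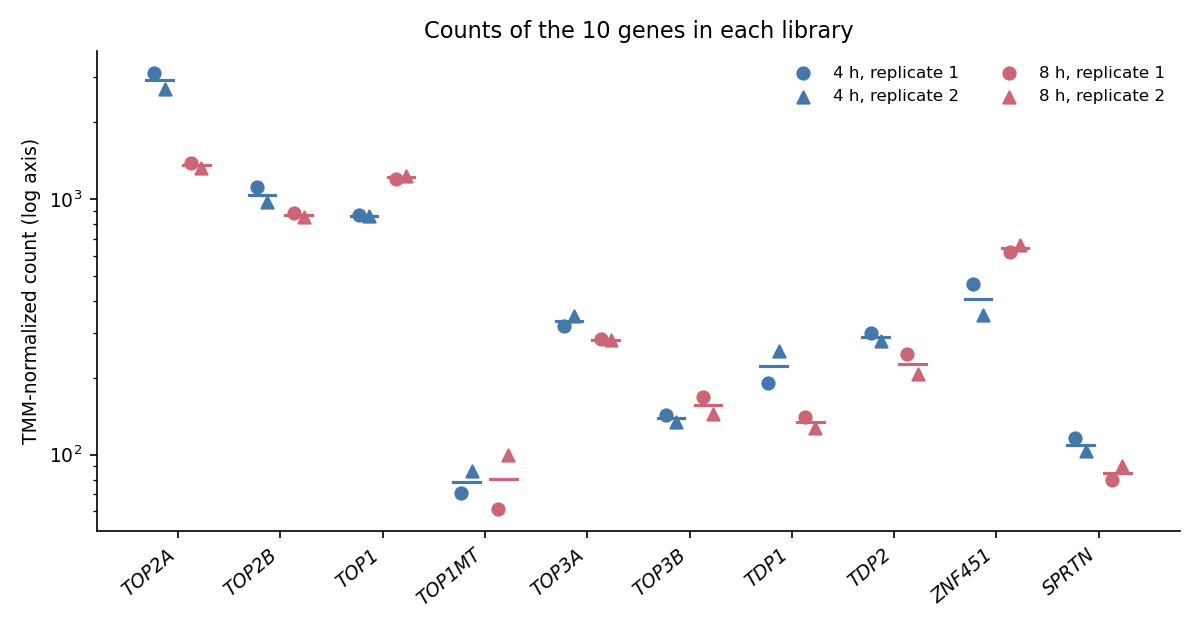
TMM-normalized counts (log axis) of the 10 genes, with a point for each library (blue, 4 h; red, 8 h; circles, replicate 1; triangles, replicate 2) and a bar at the mean of each time. TOP2A falls from 2919 to 1359 on average, TOP1 rises from 861.8 to 1217, and for TOP1MT the times overlap.

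TOP2A (NCBI Gene 7153, chromosome 17, 38544777 to 38574148, minus strand, hg19) is the gene of TOP2 alpha, the form of dividing cells that decatenates sister chromosomes. Its normalized count, which is the count divided by the effective library size and multiplied by the mean effective size, was 3128 (replicate 1) and 2709 (replicate 2) after 4 h, against 1389 and 1329 after 8 h. Both 4 h libraries were thus well above both 8 h libraries, and the 4 h replicates stood further apart than the 8 h ones. The mean fell from 2919 ± 296.6 to 1359 ± 42.0 (SD, n = 2 each). The level at 8 h was 0.466 times that at 4 h, a log2FC of −1.10 (standard error, SE, 0.08; edgeR adjusted p = 1.06e-08). Of all retained genes, 3.26% had a log2FC as low or lower. With any single library left out, the log2FC of TOP2A lay between −1.20 and −1.0 and the call was kept.

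TOP2B (NCBI Gene 7155, chromosome 3, 25639469 to 25706400, minus strand, hg19) encodes TOP2 beta, the paralog that non-dividing cells keep. Its normalized counts were 1111 and 971.8 at 4 h, against 884.7 and 854.8 at 8 h. The times did not overlap, but the gap between them was smaller than the gap between the 4 h replicates. The mean went from 1041 ± 98.4 to 869.8 ± 21.1 (SD, n = 2 each), a log2FC of −0.26 (SE 0.09, 95% interval −0.45 to −0.07, edgeR adjusted p = 0.0279). This call rested on single libraries. Without replicate 1 of 4 h the log2FC was −0.17 (edgeR adjusted p = 0.316), without replicate 2 of 8 h it was −0.24 (edgeR adjusted p = 0.056), and DESeq2 gave an adjusted p of 0.0976. Exons of TOP2B contain a listed microRNA gene, MIR4442, over 37 bases.

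The ratio of TOP2A to TOP2B counts within a library does not depend on the scaling of libraries. It was 2.82 and 2.79 at 4 h, against 1.57 and 1.56 at 8 h. The replicates of a time differed far less than the times did, also at 4 h, where each gene alone varied more. The mean ratio was 2.80 ± 0.0202 at 4 h and 1.56 ± 0.0104 at 8 h (SD, n = 2 each), a difference of −0.84 in log2 ratio. Counting error alone, for the smaller raw count at 8 h, was 3.06% for TOP2A and 3.81% for TOP2B. An SD from 2 libraries can fall below that error, so these SDs do not measure the precision of the ratio. An exact permutation test of 2 libraries against 2 (two-sided) gave p = 0.33, the smallest it can give.

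The promoters of TOP2A, TOP2B and TOP1 were chosen for display after the changes of these genes were seen. Whether promoter sequence bears on any change given here was not tested. Genes of the G2/M phase often carry CCAAT boxes, bound by NF-Y, and a CHR element near their start. The sequences are the 250 bases before the transcription start in RefSeq (GRCh38.p14), on the strand of the gene, and capitals mark CCAAT, read as ATTGG where it lies on the other strand, and the CHR element. The CHR letters searched were TTTGAA on both strands, which reads as TTCAAA on the other one, and the form with C in the middle, TTCGAA. Where RefSeq lists a second start for TOP2B, the one further upstream is given.
TOP2A (chr17:40417897-40418146, minus strand): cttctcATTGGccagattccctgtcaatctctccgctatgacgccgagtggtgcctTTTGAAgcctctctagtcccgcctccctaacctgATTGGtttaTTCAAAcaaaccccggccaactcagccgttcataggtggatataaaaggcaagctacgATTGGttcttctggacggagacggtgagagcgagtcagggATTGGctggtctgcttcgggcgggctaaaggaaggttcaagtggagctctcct
TOP2B (chr3:25664908-25665157, minus strand): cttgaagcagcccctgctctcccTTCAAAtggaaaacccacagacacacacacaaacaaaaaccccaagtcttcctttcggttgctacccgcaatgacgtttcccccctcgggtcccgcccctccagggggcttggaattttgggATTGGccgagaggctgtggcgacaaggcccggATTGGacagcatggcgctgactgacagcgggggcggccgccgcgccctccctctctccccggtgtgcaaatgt
TOP1 (chr20:41028572-41028821, plus strand): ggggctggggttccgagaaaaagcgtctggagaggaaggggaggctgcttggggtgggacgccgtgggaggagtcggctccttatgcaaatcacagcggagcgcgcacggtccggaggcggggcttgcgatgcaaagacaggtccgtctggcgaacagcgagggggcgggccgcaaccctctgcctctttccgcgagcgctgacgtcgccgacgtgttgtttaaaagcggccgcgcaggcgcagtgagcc
The TOP2A window held 4 CCAAT matches, the nearest at 53 to 49 bases before the start, and 2 CHR matches. The TOP2B window held 2 CCAAT matches and 1 CHR match, and the TOP1 window held neither. The window of the other TOP2B start held neither motif. Of 35116 such windows of 250 bases listed for human genes, 32% had at least 1 CCAAT match on either strand, 9.53% at least 2 and 0.874% at least 4, while 14.3% had a CHR match and 1.90% at least 2. For the G2/M genes named below, 14 of 14 listed windows had a CCAAT match and 7 had a CHR match. The topoisomerase and repair genes had 10 listed windows, 2 of them for TOP2B and none for TOP1MT. Of these windows, 2 had a CCAAT match and 5 had a CHR match. The 5 include those of TDP1, which fell, ZNF451, which rose, and SPRTN, which did not pass. Among 14859 windows of retained genes, 33% had a CCAAT match and 10.3% a CHR match. A match to these letters is a description of the window and not evidence of binding.

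TOP1 (NCBI Gene 7150, chromosome 20, 39657462 to 39753127, plus strand, hg19) encodes the nuclear type I enzyme that relaxes DNA ahead of RNA polymerase. Its normalized counts were 863.3 and 860.3 at 4 h, against 1201 and 1234 at 8 h, so the times were far apart and the replicates close. The mean rose from 861.8 ± 2.10 to 1217 ± 23.4 (SD, n = 2 each), which is 1.41-fold, with a log2FC of 0.50 (SE 0.08, edgeR adjusted p = 0.000101). TOP1 passed in each of the 8 alternative fits, and its log2FC lay between 0.39 and 0.52 in these and with any single library left out. On the other strand, the RNA gene PLCG1-AS1 covers 204 bases of TOP1 exons. Whether the counting used strand is not known here. The pseudogene TOP1P1 was counted as well, with 202 and 202 raw counts at 4 h and 178 and 152 at 8 h. These raw counts are not scaled for depth, unlike the values of TOP1 above. Effective library sizes were 10682739 and 10574747 at 4 h, against 9373623 and 7715601 at 8 h. Reads that fit both copies were removed by the single-position rule, and their number is not known here.

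TOP1MT (NCBI Gene 116447, chromosome 8, 144386554 to 144442149, minus strand, hg19) encodes the mitochondrial counterpart, which relaxes the mitochondrial genome. Its normalized counts were 70.9 and 86.1 at 4 h, against 61.4 and 99.4 at 8 h, so the 8 h libraries enclosed the 4 h ones. The log2FC was 0.01 (SE 0.23, edgeR adjusted p = 0.968). Raw counts were 60 to 95, and the 8 h replicates were 1.62-fold apart, beside a counting error of 12.9% for the smaller 8 h count. The 95% interval of the log2FC ran from −0.48 to 0.50, so a change of about the size seen for TOP1 was not excluded. Its sign changed with the setting, to −0.09 with library size alone and −0.03 with limma-voom.

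TOP3A (NCBI Gene 7156, chromosome 17, 18174742 to 18218321, minus strand, hg19) and TOP3B (NCBI Gene 8940, chromosome 22, 22311397 to 22337210, minus strand, hg19) encode the type I enzymes that pass single strands. TOP3A works with BLM, RMI1 and RMI2 to take apart joined DNA molecules, and TOP3B acts with TDRD3 on RNA as well as DNA. TOP3A had normalized counts of 319.5 and 349.9 at 4 h, against 283.3 and 280.8 at 8 h. All 8 h values were lower, yet the log2FC of −0.25 (SE 0.12, 95% interval −0.50 to 0.00) did not pass (edgeR adjusted p = 0.109), except with library size alone (log2FC −0.35, edgeR adjusted p = 0.0242). TOP3B had 143.6 and 134.2 at 4 h, against 167.7 and 144.1 at 8 h, with a log2FC of 0.17 (SE 0.16, 95% interval −0.17 to 0.51, edgeR adjusted p = 0.43). The 8 h values of TOP3B were both above the 4 h values, the lower of them by less than the gap between replicates. Of the 4666 bases in TOP3B coding-transcript exons, 4052 are also covered by the antisense RNA gene PPM1F-AS1, and whether the counting used strand is not given in the sources used here, so the TOP3B counts are uncertain.

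**Figure D2:**
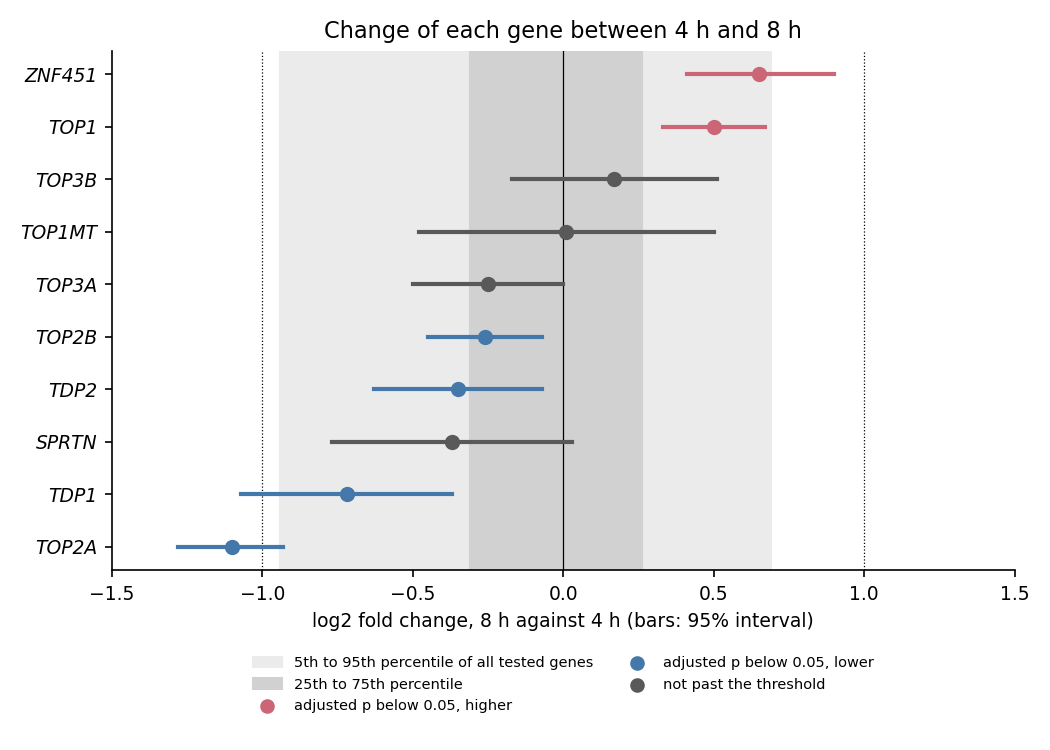
Log2 fold change of each gene at 8 h against 4 h with its 95% interval from the edgeR fit, over the ranges of all tested genes (grey) and the fold threshold (dotted). TOP2A at −1.10 lies outside the range from the 5th to the 95th percentile (−0.94 to 0.69), and ZNF451 at 0.65 and TOP1 at 0.50 lie inside it.

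Levels of different genes were compared per kb of merged exons of coding transcripts, in normalized counts per kb. At 4 h the order was TOP2A (502), TOP1 (211), TOP2B (167), TDP2 (124), TOP3A (50.6), TDP1 (47.8), TOP3B (29.8), ZNF451 (26.9), TOP1MT (21.4) and SPRTN (19.6). The values of TOP3A (48.3 and 52.9) and TDP1 (41.0 and 54.7) overlapped between replicates, as did TOP3B with ZNF451 and TOP1MT with SPRTN. At 8 h TOP1 came first with 294 and 302, and TOP2A followed with 239 and 229. ZNF451 (41.0 and 43.6) and TOP3A (42.9 and 42.5) overlapped at 8 h. TOP2B kept the 3rd place at both times. The order below TOP2B depended on the length used. TOP3A stood 5th at 4 h with merged exons and 9th with the 75-base windows described next. ZNF451, whose merged exons (15.18 kb) are longer than its canonical transcript (5.09 kb), went from 8th to 5th at 4 h with canonical transcripts. Since reads were mapped without splicing, a read could not be aligned across an intron. The share of 75-base windows inside 1 exon of the canonical transcript ran from 48.8% for TOP1MT to 90.6% for SPRTN. TOP2A (56.0%), TOP2B (55.1%) and TOP1 (61.5%) were close to each other in this respect.

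TOP2A made up the largest share of topoisomerase transcripts at 4 h and TOP1 at 8 h. Shares were taken of the counts per kb summed over the 6 topoisomerase genes in the same library, which removes library scaling. The share of TOP2A was 52.5% and 49.7% at 4 h, against 31.0% and 29.8% at 8 h. The share of TOP1 was 20.6% and 22.5% at 4 h, against 38.2% and 39.3% at 8 h. The libraries of the times did not overlap for either gene, and the order of TOP2A and TOP1 changed in both 8 h libraries. TOP2B held 17.3% and 16.6% at 4 h, against 18.4% and 17.8% at 8 h, a difference of about the size of the gap between replicates. With merged exons none of TOP3A, TOP3B and TOP1MT exceeded 5.65% in any library. Their shares depended on the length, and with unspliced windows TOP3B reached 7.43% and TOP1MT 7.28%, while the 4 h means went from 3.04% to 4.86% for TOP3B and from 2.19% to 4.61% for TOP1MT. With the other length measures TOP1 also overtook TOP2A at 8 h, at 36.2% to 38.5% against 28.0% to 28.9%.

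**Figure D3:**
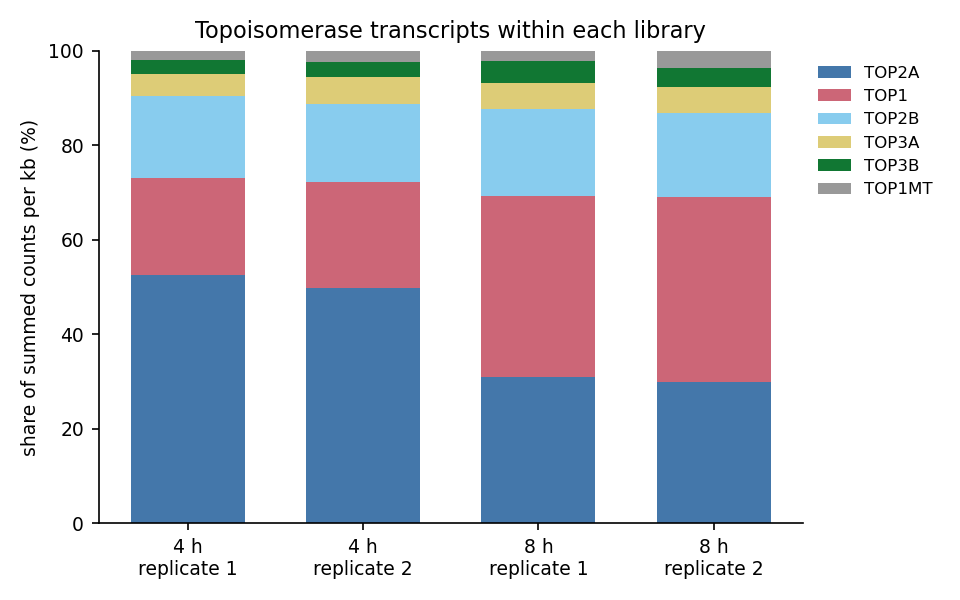
Share (%) of each topoisomerase gene in the counts per kb of merged exons summed over the 6 genes, with a bar for each library. TOP2A goes from 52.5% and 49.7% at 4 h to 31.0% and 29.8% at 8 h, TOP1 goes from 20.6% and 22.5% to 38.2% and 39.3%, and the share of TOP2B is 16.6% to 18.4% in all libraries.

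Among the repair enzymes, TDP1 and TDP2 fell and ZNF451 rose. TDP1 (NCBI Gene 55775, chromosome 14, 90421283 to 90511108, plus strand, hg19) had normalized counts of 190.2 and 253.8 at 4 h, against 141.1 and 126.7 at 8 h. The 4 h replicates were 1.33-fold apart, and both were above the 8 h libraries. The level at 8 h was 0.605 times that at 4 h, with a log2FC of −0.72 (SE 0.17, edgeR adjusted p = 0.00192). TDP1 passed in all 8 alternative fits but not without replicate 2 of 4 h (log2FC −0.50, edgeR adjusted p = 0.09).

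TDP2 (NCBI Gene 51567, chromosome 6, 24650207 to 24667158, minus strand, hg19) had normalized counts of 300.6 and 279.2 at 4 h, against 247.5 and 206.3 at 8 h. The times did not overlap, and the 8 h replicates differed by more than the nearest libraries of different times did. The log2FC was −0.35 (SE 0.13, 95% interval −0.63 to −0.07, edgeR adjusted p = 0.0448), close to the threshold. It did not pass with DESeq2 (adjusted p = 0.165) or after correction for the trend with abundance (log2FC −0.29, edgeR adjusted p = 0.0931). It also did not pass without replicate 1 of 4 h (log2FC −0.30, edgeR adjusted p = 0.231), replicate 2 of 4 h (−0.40, 0.105) or replicate 2 of 8 h (−0.23, 0.239).

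ZNF451 (NCBI Gene 26036, chromosome 6, 56951642 to 57035103, plus strand, hg19) had normalized counts of 464.9 and 350.8 at 4 h, against 621.8 and 662.3 at 8 h. Both 8 h libraries were above both 4 h libraries, which were 1.32-fold apart. It rose 1.57-fold, with a log2FC of 0.65 (SE 0.12, edgeR adjusted p = 0.000236), higher than 94.2% of the log2FC values of all retained genes. The call was kept in the 8 alternative fits and with any single library left out, with a log2FC between 0.47 and 0.86. The antisense gene ZNF451-AS1 covers 697 bases of its exons.

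SPRTN (NCBI Gene 83932, chromosome 1, 231472850 to 231490769, plus strand, hg19) was the lowest of the 10 genes per kb. Its normalized counts were 115.8 and 103.3 at 4 h, against 79.8 and 90.7 at 8 h, lower in both 8 h libraries. The log2FC of −0.37 (SE 0.19, 95% interval −0.77 to 0.03) did not pass (edgeR adjusted p = 0.139), and it rests on raw counts of 73 to 129. SPRTN shares 749 exon bases with EXOC8 on the other strand, a gene with 215 to 305 counts per library and a log2FC of 0.19 (SE 0.13, edgeR adjusted p = 0.263).

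Each repair enzyme was then set against the enzyme it acts on or with, as a ratio of raw counts within the library. TDP1 to TOP1 was 0.220 and 0.295 at 4 h, against 0.118 and 0.103 at 8 h, a difference in log2 ratio of −1.21 that was the largest of the 9 pairs. TDP2 to TOP2A went the other way, from 0.0961 and 0.103 to 0.178 and 0.155, since TOP2A fell by more than TDP2. TDP2 to TOP2B overlapped between the times, with 0.271 and 0.287 at 4 h, against 0.280 and 0.241 at 8 h. ZNF451 to TDP2 was 1.55 and 1.26 at 4 h, against 2.51 and 3.21 at 8 h, a difference of 1.03. SPRTN to TOP2A was 0.0370 and 0.0382 at 4 h, against 0.0574 and 0.0682 at 8 h.

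Among pairs of related enzymes other than TOP2A and TOP2B, the difference in log2 ratio was −0.41 for TOP3A to TOP3B, −0.36 for TDP1 to TDP2 and 0.50 for TOP1 to TOP1MT. TOP3A to TOP3B stood at 2.23 and 2.61 at 4 h, against 1.69 and 1.95 at 8 h, and TDP1 to TDP2 was 0.633 and 0.909 at 4 h, against 0.570 and 0.614 at 8 h. TOP1 to TOP1MT was 12.2 and 9.99 at 4 h, against 19.6 and 12.4 at 8 h, where the higher 4 h value was close to the lower 8 h value. Single libraries moved these differences: that of TDP1 to TDP2 was −0.62 without replicate 1 and −0.10 without replicate 2 of 4 h, and that of TOP1 to TOP1MT was 0.17 without replicate 1 and 0.83 without replicate 2 of 8 h. In 8 of the 9 pairs the times did not overlap, where 68.2% of all pairs among 12554 retained genes with a count in every library did not, and pairs that share a gene are not independent of each other. The exact permutation test (two-sided) gave p = 0.33 for each of these 8 pairs, the smallest possible with 2 libraries against 2, and p = 0.375 after Benjamini-Hochberg adjustment over the 9. For TDP2 to TOP2B the exact permutation test gave p = 0.667.

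**Figure D4:**
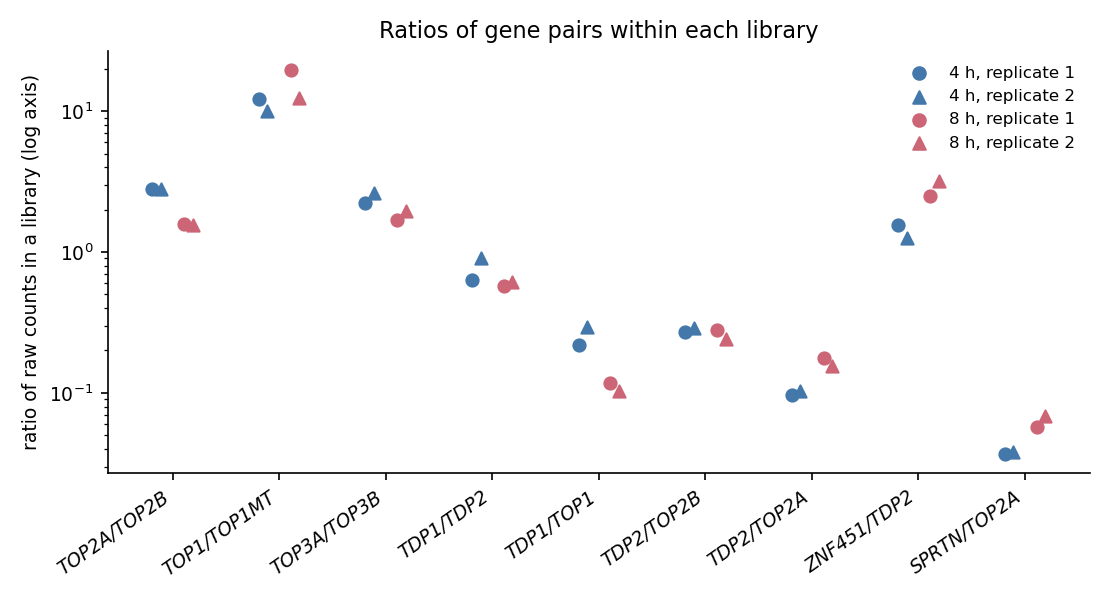
Ratio of the raw counts of 9 gene pairs within each library (log axis; blue, 4 h; red, 8 h; circles, replicate 1; triangles, replicate 2). The TOP2A to TOP2B ratio is 2.82 and 2.79 at 4 h, against 1.57 and 1.56 at 8 h, and TDP2 to TOP2B is the pair whose times overlap.

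Genes that act with these enzymes were followed in 6 lists of partner and repair genes, of which 62 of 63 genes were retained. In these lists 5 genes rose and 22 fell, beside 19.9% rising and 18.8% falling among all retained genes. Of those that fell, 4 passed the fold threshold, which 3.88% of all retained genes passed downward. The same shares are the background for the counts of each single list below. Among 8 partners of TOP3A, TOP3B and TOP1, 3 fell and 1 rose, with a median log2FC of 0.01. The members that fell were the 3 that form a complex with TOP3A. The helicase gene BLM had normalized counts of 166.9 and 163.2 at 4 h, against 48.1 and 43.5 at 8 h (log2FC −1.84, SE 0.20, edgeR adjusted p = 7.04e-07), while RMI1 went from 165.9 ± 28.1 to 90.3 ± 17.0 (SD, n = 2 each; edgeR adjusted p = 0.00133) and RMI2 had a log2FC of −0.82. TDRD3, the TOP3B partner, had a log2FC of −0.05 (95% interval −0.47 to 0.38), and FXR2, an RNA-binding protein of the same group, rose with a log2FC of 0.28 (edgeR adjusted p = 0.0154). The FXR2 call was lost without replicate 1 (edgeR adjusted p = 0.165) or replicate 2 of 4 h (0.0593), and also with library size alone, DESeq2 or the abundance trend correction (adjusted p of up to 0.125).

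Single-strand break repair genes, which act on the nick once TDP1 has removed TOP1, had 3 of 8 members lower, none higher and a median log2FC of −0.21. PARP1, which senses breaks, was at 999.7 and 1025 at 4 h, against 567.6 and 554.2 at 8 h (log2FC −0.85, SE 0.09, edgeR adjusted p = 4.7e-07). PARP2 fell with a log2FC of −0.52 (edgeR adjusted p = 0.00584), a call lost without replicate 2 of 4 h (log2FC −0.45, edgeR adjusted p = 0.0871). The 3rd was PARG, which removes the polymer that PARP1 makes (log2FC −0.60, edgeR adjusted p = 0.0327; 0.247 without replicate 1, 0.054 without replicate 2 of 4 h and 0.098 without replicate 2 of 8 h). The scaffold and ligase genes XRCC1 (log2FC −0.20) and LIG3 (0.12) did not pass.

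End joining genes, which can seal the break once TDP2 has cleaned it, had 3 of 8 members lower, none higher and a median of −0.22. XRCC5, the larger Ku subunit, was at 2995 and 2893 at 4 h, against 2288 and 2387 at 8 h (log2FC −0.33, SE 0.07, edgeR adjusted p = 0.0015). XRCC4, the partner of ligase LIG4, had a log2FC of −0.72 (edgeR adjusted p = 0.0108), which was lost without replicate 1 of 4 h (log2FC −0.52, edgeR adjusted p = 0.169) and with DESeq2 (adjusted p = 0.0669). The 3rd was the kinase gene PRKDC (log2FC −0.30, edgeR adjusted p = 0.00585; 0.0657 without replicate 1 of 4 h). LIG4 itself had a log2FC of 0.07 (95% interval −0.27 to 0.41).

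Of 12 nuclease genes, 5 fell and none rose, with a median of −0.30. FEN1, the flap nuclease of DNA replication, was at 508.8 and 561.2 at 4 h, against 188.2 and 171.5 at 8 h (log2FC −1.57, edgeR adjusted p = 1.1e-08). EME1, the partner of MUS81, went from 186.7 ± 2.62 to 64.1 ± 6.28 (SD, n = 2 each; log2FC −1.53), whereas MUS81 had a log2FC of −0.09 (95% interval −0.34 to 0.17). The 3 genes of the complex that can cut a protein from a DNA end, MRE11 (log2FC −0.66), RAD50 (−0.40) and NBN (−0.36), were the other members that fell. Without replicate 1 of 4 h, MRE11 (edgeR adjusted p = 0.156) and NBN (0.17) did not pass.

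Of 9 genes for proteases and extraction factors, 3 fell and 1 rose, with a median of −0.16. FAM111A, a protease at replication forks, fell from 701.8 and 618.3 to 317.0 and 267.1 (log2FC −1.17, edgeR adjusted p = 2.1e-07). TRAIP, a ubiquitin ligase of the replisome, had a log2FC of −0.98 (edgeR adjusted p = 0.000987), and RFWD3, a ubiquitin ligase of fork repair, one of −0.64 (edgeR adjusted p = 5.55e-05). TEX264, which brings the segregase VCP and SPRTN to TOP1, was at 518.7 and 545.8 at 4 h, against 754.8 and 795.2 at 8 h (log2FC 0.54, SE 0.09, edgeR adjusted p = 0.000148), while VCP did not pass (log2FC −0.18, edgeR adjusted p = 0.0543).

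SUMO and ubiquitin conjugation genes were divided, with 3 of 17 retained members higher, 5 lower and a median of 0.01. The SUMO ligase gene PIAS4 was at 115.8 and 107.9 at 4 h, against 161.6 and 192.6 at 8 h (log2FC 0.66, edgeR adjusted p = 0.0043), and its relative PIAS1 rose with a log2FC of 0.45, while PIAS3 fell from 614.3 ± 28.6 to 442.0 ± 47.9 (SD, n = 2 each; log2FC −0.48). The PIAS4 call was lost without replicate 2 of 4 h (edgeR adjusted p = 0.0559). SUMO3 fell with a log2FC of −0.42 (edgeR adjusted p = 0.000769), and SUMO2 rose with one of 0.73 (edgeR adjusted p = 0.0147), but SUMO2 has 54 to 95 raw counts, can lose reads to pseudogene copies, and was not called without replicate 2 of 4 h (edgeR adjusted p = 0.227) or with DESeq2 (adjusted p = 0.0717). SENP1 (log2FC −0.35) and RING1 (log2FC −0.30) also fell. Both lost their call without at least 1 library, with an edgeR adjusted p of up to 0.181 for SENP1 and 0.399 for RING1, and PIAS1 lost it without replicate 1 of 4 h (0.102).

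In 15 G2/M genes, the class that TOP2A belongs to, all 15 fell, beside 18.8% of all retained genes. Of the 15, 13 passed the fold threshold, beside 3.88% downward among all retained genes, and the median log2FC was −1.30. The log2FC of TOP2A (−1.10) lay within the range of these 15 genes, −1.77 to −0.60. AURKB (−0.60) and CCNB2 (−0.96) fell by less than TOP2A and the other 13 by more. KIF11, a spindle motor, was at 620.1 and 621.0 at 4 h, against 192.3 and 169.0 at 8 h, and CCNB1, the cyclin of mitotic entry, had a log2FC of −1.64 (SE 0.13, edgeR adjusted p = 1.1e-08). These lists were chosen with results of these data known, so their counts are a description. List genes beyond the up to 2 largest rises and falls per list were named after their values were seen.

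**Figure D5:**
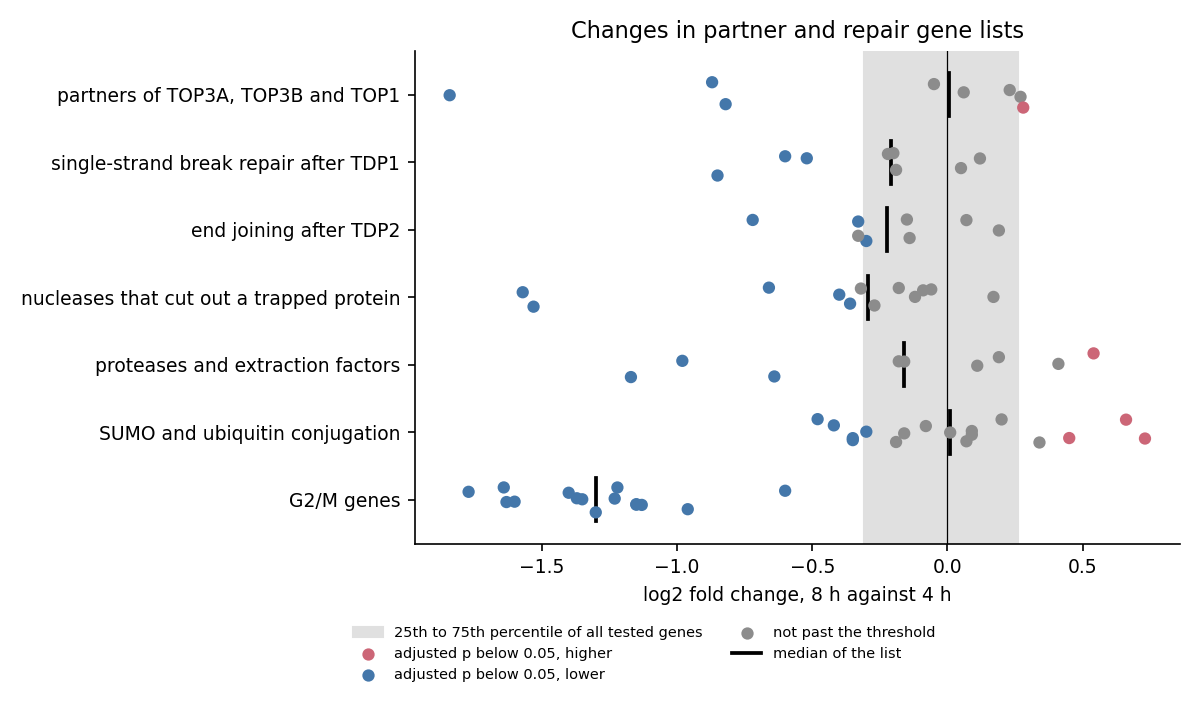
Log2 fold change at 8 h against 4 h of each retained gene in 6 partner and repair lists and in the G2/M list (red and blue, called higher and lower; grey points, not past the threshold; black bar, median; grey band, 25th to 75th percentile of all tested genes, −0.31 to 0.26). The G2/M genes lie from −1.77 to −0.60, and the medians of the 6 other lists lie from −0.30 to 0.01.

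The genes whose pattern over the 4 libraries was most like that of TOP2A were APOLD1, RCCD1, NREP, CDC6 and STARD4. Likeness was the Euclidean distance between log2 normalized counts centred on each gene's mean, among 9378 candidate genes whose mean normalized count reached 100, and these 5 had distances of 0.0356 to 0.101 from TOP2A. APOLD1 had normalized counts of 840 and 732.5 at 4 h, against 382.5 and 354.1 at 8 h (log2FC −1.09), and CDC6, a replication licensing factor, had a log2FC of −1.06. For TOP2B, DPY19L1, HSBP1 and CCAR1 were among the nearest, at distances of 0.0131 to 0.0376. For TOP1 they were CLK3, UBAP1, ILRUN, IFT57 and FLI1, at 0.0154 to 0.0264, and each had a log2FC between 0.49 and 0.51. With 4 libraries many genes can share such a pattern, so the names are a description only.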

How the data were processed

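RNA-seq counts of 4 libraries were analysed. The deposited values are whole-number counts per NCBI Gene ID, which the authors made from 75-base single reads of a stranded mRNA kit aligned to hg19 with Bowtie 1.2.0, keeping reads with 1 reported position. The submitters' processing notes also name deepTools 2.4.1. The counting tool, its annotation and its use of strand are not given in the sources used here. Bowtie 1 does not split reads over introns, which lowers counts in genes with short exons.

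Genes above 1 CPM in at least 2 libraries (12559 of 23459) were kept, scaled by TMM and tested at 8 h against 4 h with edgeR 4.0.16 (quasi-likelihood, Benjamini-Hochberg over all kept genes, threshold 0.05). SE was the log2FC divided by the root of F. DESeq2 1.42.0, limma-voom 3.58.1, other scalings and filters, a replicate block and each library left out were alternatives, and the fits were tested on simulated data. Gene positions are from GENCODE on hg19. Named list genes were the up to 2 largest rises and falls per list whose mean normalized count reached 100 at either time and whose times did not overlap. The methods of the study call the libraries biological replicates, the labels do not name separate cultures, and p-values measure only the spread between these samples. The members and lists were chosen with earlier results of these data known. A few genes that the naming rule or the lists include are not reported here.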

Additional observations from a re-analysis of the deposited data

How the results depend on the processing

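With 2 libraries a time, genes with few counts limit what can be seen: SPRTN, TOP1MT and TOP3B have at most 164 raw counts in any library. The direction was kept for 9 of the 10 genes in every fit. The sign of TOP1MT changed, with a log2FC of −0.09 with library size alone and −0.03 with limma-voom, and of −0.35 to 0.34 with single libraries left out, none of them past the threshold. The number of the 10 genes called lower, 4, was 2 with DESeq2, 3 with the abundance trend correction and 5 with library size alone. Calls also depended on single libraries, as given above for TOP2B, TDP1, TDP2 and several list genes. The share of all retained genes called lower was 18.8% in the main fit and 11.9% with DESeq2. With the trend correction this share was 17.9%, and with library size alone it was 26.2%. The cause was not tested. In the 6 partner and repair lists, the 5 higher and 22 lower calls became 3 and 16 with DESeq2, and 4 and 30 with library size alone. Of all retained genes, 19.9% were called higher in the main fit, 14.3% with DESeq2 and 13.5% with library size alone. In these lists the fold threshold left 0 higher and 4 lower. The share of TOP2A at 4 h was 48.4% with the longest and 48.2% with the canonical transcript. Its share at 8 h was 28.2% and 28% with these, 28.9% with unspliced windows and 31.3% without TOP1MT in the sum. The share of TOP1 at 8 h was 36.2% with unspliced windows and 39.9% without TOP1MT. The canonical and unspliced lengths were chosen after seeing the data.

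Replicate numbers were shared between the times, but the labels tie no number to a shared culture or day. The deviations of same-numbered libraries correlated at 0.0484 over 12559 genes and at 0.114 over 9396 genes whose mean count reached 100. With 2 pairs this does not settle whether the numbers pair the libraries, and they were treated as unpaired. With the replicate block, 2829 genes were called higher and 2664 lower, and of the 10 genes 2 were higher and 4 lower.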
